A study of Homo sapiens with 4 samples.

Results

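Solute carriers are membrane proteins that move small molecules such as amino acids, sugars, metal ions and vitamins across the plasma membrane or the membranes of organelles. Most work as facilitators, as exchangers or as cotransporters that use the sodium or proton gradient, and the human genes are numbered by family (SLC1, SLC2 and so on). In pigment cells and their tumours, amino acid carriers feed protein synthesis and growth signalling through mTORC1, and organelle carriers set the ion, amino acid and sugar content of lysosomes and melanosomes. The genes described here are those whose current symbol starts with SLC and a digit, without the mitochondrial SLC25A carriers and without 9 genes of pigmentation, glycolysis, cystine and iron transport. Of 11650 genes with a value, 148 met that rule and 124 of these averaged 1 FPKM or more across the 4 libraries (fragments per kilobase of transcript, scaled to the mapped fragments of the library, so a level per length). The members span 42 families.

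The cells were 92.1, an established human uveal melanoma line, in a resistant derivative (2 libraries) and in the parental cells (2 libraries). The labels do not name the agent of resistance, say how resistance arose, or say whether the derivative is 1 clone. The cell line tag in the labels counts up by 1 across the samples while every title names 92.1, and the titles were followed. Nothing says that replicate libraries were grown as separate cultures, and p-values therefore cover only library-to-library spread, which may be technical.

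All 6 melanocyte lineage markers checked had values, summing to 2991 and 2259 FPKM in resistant libraries and to 2579 and 2299 FPKM in parental libraries. Most of each sum was TYRP1, the 1 marker higher without overlap (2143 and 1514 FPKM in resistant, 1490 and 1484 FPKM in parental libraries). Lower without overlap were 2, SOX10 (54.9 and 54.3 against 91.8 and 73.3 FPKM) and MITF (9.64 and 31.8 against 35.3 and 37.4 FPKM). The other 3 overlapped, so 50% did not, against 51% of all genes tested. Of 7 epithelial markers 3 had values, the keratins KRT8, KRT18 and KRT19, which summed to 9.39 and 17.7 FPKM in resistant libraries and to 3.12 and 3.91 FPKM in parental libraries. The fibroblast list had 3 of 6 (9.59 and 7.34 FPKM in resistant, 5.2 and 6.01 FPKM in parental libraries), the leukocyte list 2 of 5 (13.2 and 10.7 FPKM in resistant, 32.6 and 27.4 FPKM in parental libraries) and the retinal pigment epithelium list 2 of 3 (3.92 and 2.23 FPKM in resistant, 5.29 and 4.65 FPKM in parental libraries). The defining genes EPCAM, CDH1, PTPRC and all 4 endothelial markers had no value. The part of other cells in the results below was not tested.

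No solute carrier gene passed the test over all genes. In resistant cells the glucose transporter gene SLC2A4 and the glutamine carrier gene SLC1A5 were lower, and SLC66A3, SLC16A6 and SLC35D2 were higher, with libraries of the 2 groups that did not overlap. The test was limma on log2(FPKM + 1) with Benjamini-Hochberg adjustment over 10271 genes at 0.05, under which 0.0584% of all genes tested were called (0.0487% higher and 0.00974% lower). The smallest adjusted p of a solute carrier gene was 0.0891 (limma), for SLC2A4. At an unadjusted p under 0.05, 12 members were higher and 16 lower, together 22.6% of members, against 16.2% of all genes tested (6.06% higher and 10.2% lower). With median-of-ratios scaling that split was 21 members up against 14 down, and with quantile normalization it was 18 against 13. The shares of all genes are given for the deposited values only. These 2 splits therefore have no background beside them and are not read as a trait of the members. The groups did not overlap for 73 members (58.9%), 33 higher and 40 lower in resistant cells, against 51% of all genes tested (19.1% higher and 31.8% lower). SLC2A4, SLC16A5 and SLC16A9, lower in both counts, passed the minimum mean of 1 FPKM only through the parental libraries. SLC12A2, among the 33 higher, passed it only through the resistant libraries. SLC47A1, also among the 33 higher, had a parental mean of 0.867 FPKM. SLC13A3, among the 40 lower, had a resistant mean of 0.951 FPKM. The shares of members include these genes. As deposited, the median log2 fold change of members was -0.01 and that of all genes tested was -0.08. The median of members was 0.06 when scaled by median of ratios and 0.05 when quantile normalized. These 2 values are not set against -0.08, since scaling can also move the median of all genes, which is not given for them. With 2 libraries against 2 an exact permutation test cannot go below p = 0.333, so single genes are given with their values and the spread that limma shares between genes. In bulk RNA, fewer expressing cells and less RNA per cell cannot be told apart.

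**Figure D1:**
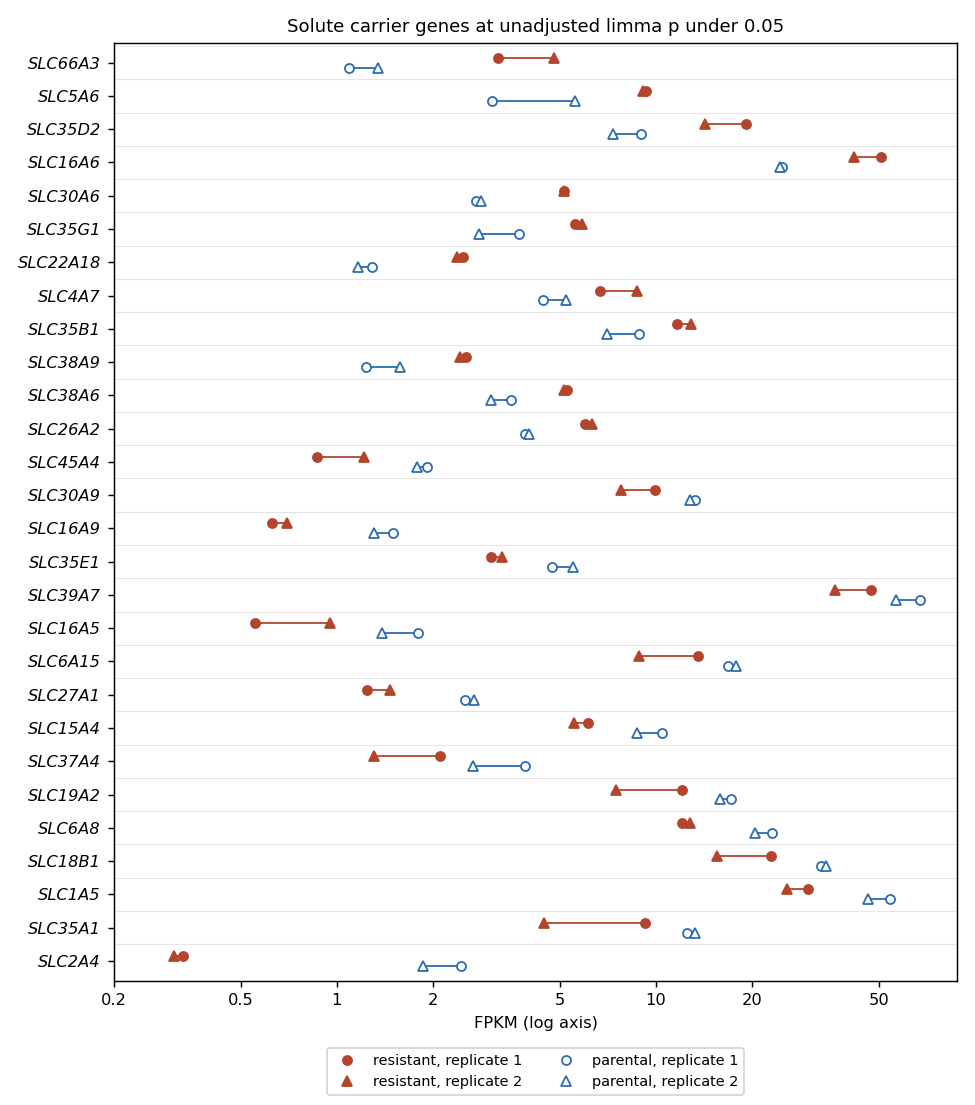
FPKM on a log axis in each of the 4 libraries for the 28 solute carrier genes at an unadjusted limma p under 0.05, ordered by log2 fold change, with 2 resistant libraries (filled) above 2 parental libraries (open) for each gene and a line joining the libraries of a group. In all 28 the groups do not overlap, and SLC2A4 at the bottom has the widest gap, with 0.329 and 0.309 FPKM in resistant and 2.46 and 1.87 FPKM in parental libraries.

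By mean level, SLC3A2, SLC7A8, SLC39A7, SLC7A5 and SLC39A6 led the members, with 56.3, 53.2, 52 and 49.2 FPKM for the first 4 and 44.3 FPKM for SLC39A6. The median member mean was 4.23 FPKM, 28 members had a mean of at least 10 FPKM, and 37 lay below 2 FPKM. The members together took 0.357% and 0.300% of summed FPKM in resistant libraries and 0.408% and 0.336% in parental libraries. The groups thus overlapped, and replicate 1 was the higher library in each.

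**Figure D2:**
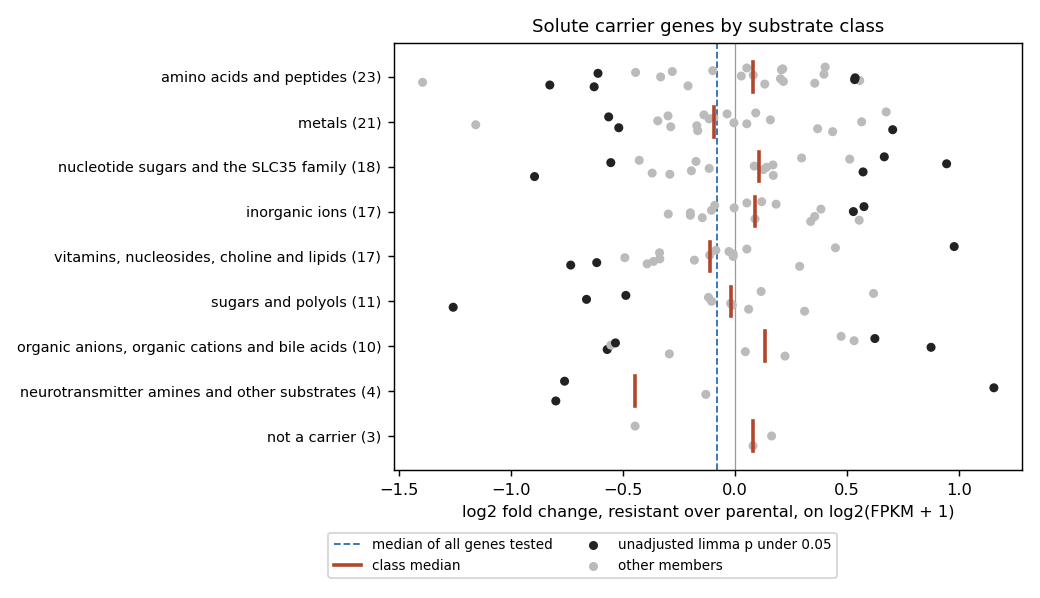
Log2 fold change of resistant over parental cells for each of the 124 solute carrier genes by substrate class, with the number of genes in brackets, the class median as a red bar and the median of all 10271 genes tested as a dashed line at -0.08. Dark points have an unadjusted limma p under 0.05. Class medians lie between -0.44 (4 genes) and 0.14, and each class of carriers has genes on both sides of 0.

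Substrate classes were set by family and, for a few genes, by the gene's own substrate. As deposited, 4255 of all 10271 genes tested had a log2 fold change above 0 and 6016 below 0. Among the 124 members these counts were 59 and 65. Of 23 amino acid and peptide carriers, 14 were above 0 and 9 below 0 (median log2 fold change 0.08). Among these, 6 higher and 8 lower members had groups without overlap (60.9% of the class, against 51% of all genes tested). An unadjusted limma p under 0.05 was found for 2 higher and 3 lower (21.7% of the class, against 16.2% of all genes tested). The median turned to -0.15 without resistant replicate 1 and to -0.16 without parental replicate 2. SLC1A5 encodes ASCT2, a sodium-dependent exchanger that brings glutamine into the cell. It stood at 30 and 25.8 FPKM in resistant libraries, against 54.1 and 46.4 FPKM in parental libraries. Both resistant libraries were lower than both parental libraries, with a log2 fold change of -0.82 ± 0.17 (SE, n = 2 each, limma adjusted p = 0.158). SLC1A5 (ENSG00000105281.12_3) lies on the minus strand of chromosome 19 from 46774883 to 46788594 in GENCODE release 29 on GRCh38 and is protein-coding there. Its exons overlap those of AC008622.2 on the opposite strand, and the sources used here do not say whether counting used strand.

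The promoter windows of SLC1A5 are shown because it had the lowest p of the amino acid carriers. RefSeq (GRCh38.p14) gives it 3 starts, and each window runs from 250 bases before to 50 bases after a start on the minus strand. They were searched on both strands for CACGTG, the core bound by MITF and related factors, and TGATGCAA, a form of the amino acid response element bound by ATF4 with a C/EBP partner, which do not overlap each other. Capitals mark a match. The windows are at chr19:46788545-46788844 (window 1), chr19:46787244-46787543 (window 2) and chr19:46784765-46785064 (window 3).
SLC1A5 window 1: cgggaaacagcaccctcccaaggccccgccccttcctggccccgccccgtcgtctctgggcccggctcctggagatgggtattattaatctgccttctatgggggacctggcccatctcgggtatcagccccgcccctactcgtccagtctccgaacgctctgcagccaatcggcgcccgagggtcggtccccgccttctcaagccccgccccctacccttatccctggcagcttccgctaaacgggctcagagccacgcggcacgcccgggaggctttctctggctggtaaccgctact
SLC1A5 window 2: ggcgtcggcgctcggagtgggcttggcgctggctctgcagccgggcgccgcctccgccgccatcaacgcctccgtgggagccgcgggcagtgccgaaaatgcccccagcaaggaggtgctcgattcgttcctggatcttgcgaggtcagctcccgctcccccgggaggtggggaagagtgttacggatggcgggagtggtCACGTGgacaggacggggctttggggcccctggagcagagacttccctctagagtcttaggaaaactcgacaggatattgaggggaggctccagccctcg
SLC1A5 window 3: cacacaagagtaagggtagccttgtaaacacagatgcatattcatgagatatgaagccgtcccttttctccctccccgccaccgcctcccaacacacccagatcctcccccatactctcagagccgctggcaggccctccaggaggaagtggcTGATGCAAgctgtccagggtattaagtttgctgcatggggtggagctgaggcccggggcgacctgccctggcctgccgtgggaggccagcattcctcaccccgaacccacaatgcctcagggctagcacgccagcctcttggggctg
Window 1, the outermost, held neither motif, window 2 held CACGTG and window 3 held TGATGCAA. The RefSeq table had 149 windows for 98 of the members. CACGTG was in 14.8% of these and in 7.26% of all 35116 windows of the table, and TGATGCAA in 1.34% of member windows and 0.866% of all. The whole table was not limited to genes tested here, as the members were, so the 2 sets of windows are unlike. Members with CACGTG included genes above and below 0. Among them were SLC26A2, which was higher in resistant cells, SLC16A9, which was lower, and SLC4A2, whose groups overlapped. These matches describe letters in a window and show no binding.

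SLC3A2 encodes CD98hc, the heavy chain that carries SLC7A5, SLC7A6 and SLC7A8 to the plasma membrane. It stood at 48.9 and 50.6 FPKM in resistant libraries, against 67.3 and 58.5 FPKM in parental libraries. Both resistant libraries were lower, with a log2 fold change of -0.33 ± 0.15 (SE, n = 2 each, limma adjusted p = 0.359). SLC7A5, the LAT1 light chain for leucine and other large neutral amino acids, stood at 55.1 and 50.3 FPKM in resistant libraries and at 51.8 and 39.5 FPKM in parental libraries, so its groups overlapped. SLC7A8, the LAT2 light chain, stood at 58.4 and 47.7 FPKM in resistant libraries and at 89.4 and 17.3 FPKM in parental libraries. Here the resistant libraries lay between the parental ones, and the log2 fold change of 0.40 ± 0.73 (SE, n = 2 each, limma adjusted p = 0.812) was 1.56 without parental replicate 1 and -0.75 without parental replicate 2.

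The SLC38 sodium-coupled amino acid carriers had 6 members, 5 of them above 0. SLC38A9 encodes a lysosomal carrier that reports arginine to mTORC1. It stood at 2.55 and 2.43 FPKM in resistant libraries, against 1.24 and 1.58 FPKM in parental libraries (log2 fold change 0.54 ± 0.17 SE, limma adjusted p = 0.257). SLC38A6 stood at 5.26 and 5.15 FPKM in resistant libraries, against 3.53 and 3.05 FPKM in parental libraries (log2 fold change 0.54 ± 0.18 SE, limma adjusted p = 0.27). Both were higher in each resistant library. SLC38A2, the glutamine and alanine carrier SNAT2, stood at 28.3 and 15 FPKM in resistant libraries, against 13.4 and 14 FPKM in parental libraries, so resistant replicate 2 was close to the parental level. SLC38A1, the glutamine carrier SNAT1, had the lowest log2 fold change of all members (-1.39 ± 0.72 SE, limma adjusted p = 0.399). Its values were 25.4 and 4.4 FPKM in resistant libraries, against 30.3 and 30.4 FPKM in parental libraries. The low value was that of resistant replicate 2, without which the log2 fold change was -0.25.

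All 4 members of the SLC6 family, sodium- and chloride-coupled carriers, had resistant values below every parental value, as deposited and under each of the 3 other scalings tried. SLC6A8, the creatine carrier, stood at 12.1 and 12.8 FPKM in resistant libraries, against 23.1 and 20.5 FPKM in parental libraries. Its log2 fold change was -0.76 ± 0.17 (SE, n = 2 each, limma adjusted p = 0.166), and its exons overlap PNCK on the opposite strand. SLC6A15, a carrier of branched-chain amino acids and proline, stood at 13.6 and 8.86 FPKM in resistant libraries, against 16.8 and 17.8 FPKM in parental libraries. SLC6A17, a vesicular neutral amino acid carrier, and SLC6A6, the taurine carrier, differed less, with log2 fold changes of -0.44 ± 0.26 and -0.28 ± 0.20 (SE). The family was picked out after its values were seen, and 31.8% of all genes tested were lower without overlap. SLC15A4, a lysosomal carrier of histidine and small peptides, stood at 6.13 and 5.56 FPKM in resistant libraries, against 10.4 and 8.74 FPKM in parental libraries. It was lower in both, with a log2 fold change of -0.63 ± 0.19 (SE, n = 2 each, limma adjusted p = 0.233).

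The 11 carriers of sugars and polyols had a median log2 fold change of -0.02 (0.05 when scaled by median of ratios, 0.02 when quantile normalized), with 4 above 0 and 7 below 0. At an unadjusted limma p under 0.05, 0 were higher and 3 lower, SLC2A4 among them. This count is not set against that of all genes, because SLC2A4 passed the minimum mean of 1 FPKM only through the parental libraries. SLC2A4 encodes GLUT4, the glucose transporter that insulin brings to the surface of muscle and fat cells. It stood at 0.329 and 0.309 FPKM in resistant libraries, against 2.46 and 1.87 FPKM in parental libraries. The parental mean was 6.78 times the resistant mean, the widest ratio of means among members. On the log2(FPKM + 1) scale, which understates change at low levels, the fold change was -1.26 ± 0.17 (SE, n = 2 each, limma adjusted p = 0.0891), and it passed the minimum mean of 1 FPKM only through the parental libraries. The adjusted p ran from 0.0637 to 0.16 across alternatives (limma). SLC2A4 (ENSG00000181856.14_2) lies on the plus strand of chromosome 17 from 7281667 to 7288257 in GENCODE release 29, and its exons overlap those of YBX2 on the opposite strand.

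SLC37A4, which brings glucose 6-phosphate into the endoplasmic reticulum, stood at 2.11 and 1.31 FPKM in resistant libraries, against 3.88 and 2.68 FPKM in parental libraries. SLC45A4 stood at 0.87 and 1.22 FPKM in resistant libraries, against 1.92 and 1.79 FPKM in parental libraries. These 2 were lower in both resistant libraries, with limma adjusted p of 0.291 and 0.282. SLC50A1, the only human member of the SWEET sugar transporter family, went the other way, at 15.1 and 13.7 FPKM in resistant libraries, against 7.14 and 11.3 FPKM in parental libraries (log2 fold change 0.62 ± 0.25 SE, limma adjusted p = 0.316). SLC5A3, the myo-inositol carrier, stood at 6.28 and 4.33 FPKM in resistant and at 4.52 and 4.97 FPKM in parental libraries, so its groups overlapped. It shares exons with MRPS6 on the same strand.

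In the 18 tested members of the SLC35 family, most of which bring nucleotide sugars into the Golgi apparatus and the endoplasmic reticulum for glycosylation, the median log2 fold change was 0.11, with 10 above 0 and 8 below 0. That median was -0.09 without resistant replicate 1, -0.07 without parental replicate 2, and -0.11 where only genes averaging 5 FPKM or more were kept. At an unadjusted limma p under 0.05, 3 were higher and 2 lower. Together they were 27.8% of the class, against 16.2% of all genes tested (6.06% higher and 10.2% lower). SLC35D2, a Golgi carrier of UDP-N-acetylglucosamine, stood at 19.2 and 14.3 FPKM in resistant libraries, against 9 and 7.34 FPKM in parental libraries. The resistant mean was 2.05 times the parental mean (log2 fold change 0.95 ± 0.22 SE, limma adjusted p = 0.175). SLC35G1 stood at 5.59 and 5.87 FPKM in resistant libraries, against 3.73 and 2.79 FPKM in parental libraries. SLC35B1, which exchanges ATP and ADP across the membrane of the endoplasmic reticulum, stood at 11.7 and 12.9 FPKM in resistant libraries, against 8.89 and 7.02 FPKM in parental libraries. All 3 were higher in both resistant libraries.

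SLC35A1 brings CMP-sialic acid into the Golgi apparatus, which sialyltransferases need. It stood at 9.27 and 4.47 FPKM in resistant libraries, against 12.5 and 13.3 FPKM in parental libraries (log2 fold change -0.89 ± 0.33 SE, limma adjusted p = 0.287). Both resistant libraries were lower, and they were 2.07-fold apart from each other. SLC35E1 stood at 3.04 and 3.3 FPKM in resistant libraries, against 4.73 and 5.51 FPKM in parental libraries. SLC35A4, an abundant member of the family at 14.2 and 11.6 FPKM in resistant and 16.3 and 15.6 FPKM in parental libraries, had a log2 fold change of -0.29 ± 0.18 (SE, limma adjusted p = 0.476).

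Of 10 carriers of organic anions, organic cations and bile acids, 6 were above 0 and 4 below 0 (median log2 fold change 0.14) as deposited. The groups did not overlap for 6 higher and 3 lower members, and for 4 higher and 3 lower with a common sum. Of the lower members, SLC16A5 and SLC16A9 reached the minimum mean of 1 FPKM only through the parental libraries. SLC13A3, lower, and SLC47A1, higher, had a mean under 1 FPKM in the group where they were low. The counts of this class are therefore not set against those of all genes. SLC16A6 encodes a monocarboxylate transporter that is known from zebrafish liver to export ketone bodies. It stood at 50.9 and 41.9 FPKM in resistant libraries, against 24.9 and 24.5 FPKM in parental libraries, so the resistant mean was 1.88 times the parental mean (log2 fold change 0.88 ± 0.17 SE, n = 2 each, limma adjusted p = 0.141). The gene (ENSG00000108932.11_2) lies on the minus strand of chromosome 17 from 68267026 to 68291267 in GENCODE release 29, and its exons overlap those of ARSG on the opposite strand. Its relatives were less abundant. SLC16A4 stood at 2.95 and 2.83 FPKM in resistant and at 2.79 and 2.73 FPKM in parental libraries. SLC16A5 stood at 0.555 and 0.956 FPKM in resistant libraries, against 1.8 and 1.39 FPKM in parental libraries. SLC16A9, a carnitine carrier, stood at 0.626 and 0.699 FPKM in resistant libraries, against 1.5 and 1.31 FPKM in parental libraries. The last 2 were lower in both resistant libraries, under 1 FPKM in each, with limma adjusted p of 0.274 and 0.221.

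SLC22A18, a member of the organic cation carrier family from the imprinted region of chromosome 11, stood at 2.48 and 2.39 FPKM in resistant libraries, against 1.29 and 1.16 FPKM in parental libraries. Its log2 fold change was 0.63 ± 0.16 (SE, n = 2 each, limma adjusted p = 0.199), and its exons overlap the antisense gene SLC22A18AS. The class sum was 66.2 and 57.9 FPKM in resistant libraries and 40.6 and 38.3 FPKM in parental libraries. Without SLC16A6 it was 15.3 and 16 FPKM in resistant libraries and 15.7 and 13.8 FPKM in parental libraries, and the groups then overlapped.

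**Figure D3:**
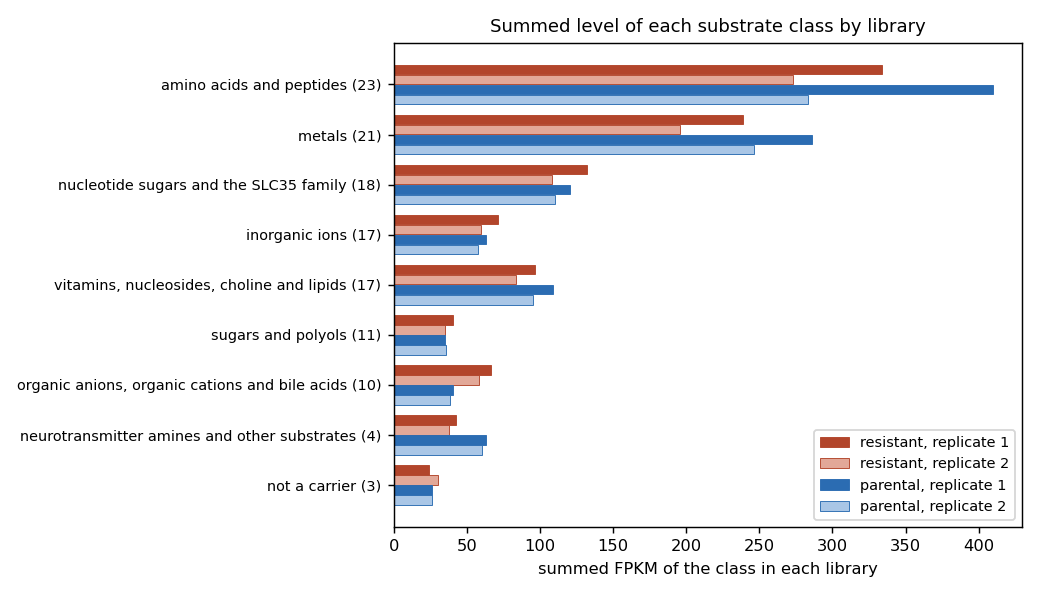
Summed FPKM of each substrate class in each library, with the number of genes in brackets and 2 resistant bars above 2 parental bars in each class. The organic anion class is higher in both resistant libraries (66.2 and 57.9 against 40.6 and 38.3 FPKM) and the neurotransmitter amine and other class is lower (42.3 and 37.8 against 62.6 and 60.4 FPKM).

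Among 21 metal ion carriers, 8 were above 0 and 13 below 0 (median log2 fold change -0.09, and 0.01 with median-of-ratios scaling). Zinc enters the cytosol through SLC39 (ZIP) proteins and leaves it through SLC30 (ZnT) proteins. Of 11 SLC39 members the groups did not overlap for 2 higher and 5 lower, and of 5 SLC30 members for 3 higher and 2 lower, where 19.1% of all genes tested were higher and 31.8% lower without overlap. The SLC39 count was 2 higher and 3 lower with median-of-ratios scaling or quantile normalization, and 1 higher and 6 lower with a common sum. The summed level of SLC39 members was 174 and 143 FPKM in resistant libraries and 226 and 187 FPKM in parental libraries. That of SLC30 members was 40.8 and 33 FPKM in resistant libraries and 36.9 and 35.8 FPKM in parental libraries, so the deposited sums overlapped for SLC30 and not for SLC39. With median-of-ratios scaling the SLC30 sums were 39.5 and 36.4 in resistant libraries and 34.8 and 35 in parental libraries, without overlap, and the SLC39 sums stayed lower, at 168 and 158 against 213 and 183. Without SLC39A1 the SLC39 sums were 165 and 134 FPKM in resistant libraries and 181 and 177 FPKM in parental libraries.

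SLC39A7, which releases zinc from the endoplasmic reticulum, stood at 47.5 and 36.4 FPKM in resistant libraries, against 67.4 and 56.8 FPKM in parental libraries. It was lower in both resistant libraries (log2 fold change -0.56 ± 0.20 SE, limma adjusted p = 0.281), and its exons overlap RXRB on the opposite strand. SLC39A6, a plasma membrane zinc importer, had overlapping groups, at 46.1 and 39.7 FPKM in resistant and 45.4 and 46 FPKM in parental libraries. SLC30A6 forms a zinc transporter of the secretory pathway with SLC30A5. SLC30A6 stood at 5.17 and 5.16 FPKM in resistant libraries, against 2.73 and 2.84 FPKM in parental libraries (log2 fold change 0.71 ± 0.17 SE, limma adjusted p = 0.185). Its partner SLC30A5 stood at 11.4 and 9.47 FPKM in resistant libraries, against 11.8 and 11.8 FPKM in parental libraries, with a log2 fold change of -0.17 ± 0.18 (SE). SLC30A9, linked to zinc export from mitochondria, stood at 9.93 and 7.79 FPKM in resistant libraries, against 13.3 and 12.8 FPKM in parental libraries, and was lower in both (limma adjusted p = 0.291). The copper importer SLC31A1 stood at 10 and 7.8 FPKM in resistant libraries, against 10.8 and 11.2 FPKM in parental libraries (limma adjusted p = 0.506).

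The 17 inorganic ion carriers had a median log2 fold change of 0.09, with 10 above 0 and 7 below 0. Non-overlapping groups were found for 6 higher and 2 lower members (47.1% of the class, against 51% of all genes tested). An unadjusted limma p under 0.05 was found for 2 higher and 0 lower (11.8% of the class, against 16.2% of all genes tested). The median was -0.13 without resistant replicate 1 and 0.34 without resistant replicate 2. SLC4A7, a sodium bicarbonate cotransporter that brings base into the cell, stood at 6.7 and 8.76 FPKM in resistant libraries, against 4.42 and 5.23 FPKM in parental libraries. SLC26A2, a sulfate carrier, stood at 6 and 6.3 FPKM in resistant libraries, against 3.91 and 4 FPKM in parental libraries. Both were higher in each resistant library, with log2 fold changes of 0.58 ± 0.21 and 0.53 ± 0.17 (SE, n = 2 each, limma adjusted p = 0.287 and 0.262). The anion exchanger SLC4A2 had overlapping groups, at 14.2 and 13.1 FPKM in resistant and 15.2 and 12.2 FPKM in parental libraries. The phosphate carrier SLC20A1 stood at 12.7 and 10.6 FPKM in resistant libraries, against 13.2 and 13.8 FPKM in parental libraries. The sodium-potassium-chloride cotransporter SLC12A2 was among the 6 higher members without overlap, but it reached the minimum mean of 1 FPKM only through the resistant libraries. It stood at 1.52 and 1.5 FPKM in resistant libraries, against 0.995 and 0.975 FPKM in parental libraries.

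For 17 carriers of vitamins, nucleosides, choline and lipids, 4 were above 0 and 13 below 0 (median log2 fold change -0.11, and -0.03 with median-of-ratios scaling). The groups did not overlap for 1 higher and 7 lower members, 47.1% of the class, against 51% of all genes tested. SLC5A6, which takes up biotin and pantothenate, was the 1 higher member, at 9.3 and 9.11 FPKM in resistant libraries, against 3.07 and 5.58 FPKM in parental libraries. Its resistant mean was 2.13 times the parental mean (log2 fold change 0.98 ± 0.27 SE, limma adjusted p = 0.214), and its exons overlap ATRAID on the opposite strand. SLC19A2, a thiamine carrier, stood at 12.1 and 7.53 FPKM in resistant libraries, against 17.2 and 16 FPKM in parental libraries (log2 fold change -0.73 ± 0.25 SE, limma adjusted p = 0.276). SLC27A1, which takes up and activates long-chain fatty acids, stood at 1.25 and 1.47 FPKM in resistant libraries, against 2.53 and 2.69 FPKM in parental libraries (log2 fold change -0.62 ± 0.17 SE, limma adjusted p = 0.211). Both were lower in each resistant library. The equilibrative nucleoside carrier SLC29A1, which led the class in level, stood at 17.7 and 14.8 FPKM in resistant libraries, against 22.9 and 18.5 FPKM in parental libraries. Its relative SLC29A2 stood at 3.35 and 3.25 FPKM in resistant libraries, against 6.16 and 4.1 FPKM in parental libraries.

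The class of neurotransmitter amines and other substrates held 4 genes, SLC6A8 among them. SLC18B1, a vesicular polyamine carrier, stood at 22.9 and 15.6 FPKM in resistant libraries, against 33.1 and 34.2 FPKM in parental libraries (log2 fold change -0.80 ± 0.22 SE, limma adjusted p = 0.215). SLC66A3, a PQ-loop protein, stood at 3.22 and 4.81 FPKM in resistant libraries, against 1.1 and 1.35 FPKM in parental libraries. SLC18B1 was lower and SLC66A3 higher in each resistant library. The resistant mean of SLC66A3 was 3.28 times the parental mean, the widest ratio among members that were higher (log2 fold change 1.16 ± 0.22 SE, limma adjusted p = 0.141). SLC66A3 (ENSG00000162976.12_2) lies on the plus strand of chromosome 2 from 11155198 to 11178874 in GENCODE release 29. SLC66A2, of the same family, had overlapping groups. A further 3 members, SLC4A1AP, SLC2A4RG and SLC7A6OS, carry an SLC symbol without being carriers, and they had log2 fold changes of 0.16, 0.08 and -0.44.

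Libraries of 1 group were over 2-fold apart for 16 members, 10 in the resistant group and 10 in the parental group (8.06% each), of which 4 were in both. Over all genes tested 9.89% were so far apart in resistant and 5.05% in parental libraries. SLC7A2, a carrier of arginine and other cationic amino acids, stood at 2.16 and 10.9 FPKM in resistant libraries and at 15.3 and 0.728 FPKM in parental libraries. Here replicate 2 was the higher resistant library and replicate 1 the higher parental library. SLC39A1, a zinc importer, stood at 8.85 and 9.1 FPKM in resistant libraries and at 45.1 and 9.72 FPKM in parental libraries. Its low log2 fold change of -1.16 ± 0.67 (SE, limma adjusted p = 0.443) was -0.10 without parental replicate 1. Without parental replicate 2 it was -2.21 and passed the test (limma adjusted p = 0.0403), which then rests on the single parental library of 45.1 FPKM. The heme carrier SLC48A1 stood at 2.36 and 2.19 FPKM in resistant libraries and at 0.297 and 2.24 FPKM in parental libraries, so parental replicate 1 stood apart.

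**Figure D4:**
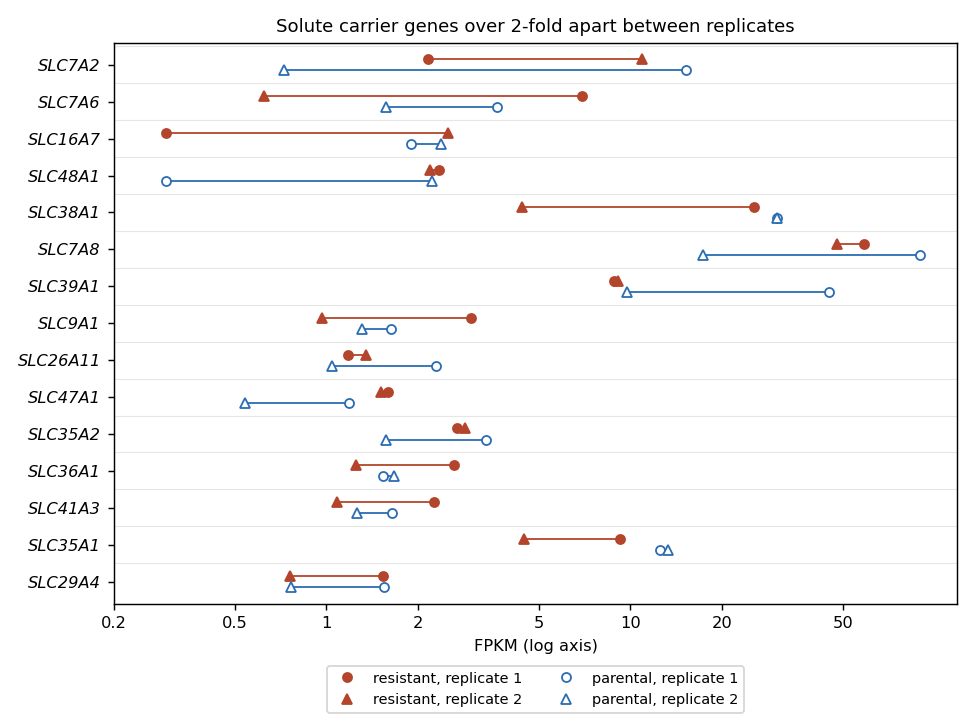
FPKM on a log axis in each of the 4 libraries for 15 of the 16 solute carrier genes whose replicates were over 2-fold apart in at least 1 group, ordered by the wider of the 2 gaps, with resistant libraries (filled) above parental libraries (open). SLC7A2 leads, with parental libraries 21-fold apart, and SLC35A1 is the 1 gene here that also had an unadjusted limma p under 0.05.

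The 24 solute carrier genes below the minimum had means from 0.423 to 0.944 FPKM and were not tested. Of these, 8 reached 1 FPKM in at least 1 library, among them SLC44A5 at 1.29 and 0.88 FPKM in resistant libraries and 0.182 and 0.247 FPKM in parental libraries. Among members, 1 lay below 1 FPKM in both parental libraries and 3 in both resistant libraries, so these passed the minimum only through the other group. The parental mean of SLC47A1 and SLC9A8 and the resistant mean of SLC13A3 and SLC12A8 were also under 1 FPKM, with a single library of that group above it.

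Other genes bear on carrier function. Of 20 listed partners and regulators, 19 were tested and 0 passed over all genes. Among them 0 were higher and 5 lower at an unadjusted limma p under 0.05, which is 26.3% of the list against 16.2% of all genes tested (10.2% lower). The median log2 fold change was -0.28, against -0.08 over all genes tested. ATP1B1, a beta subunit of the sodium pump, which maintains the gradient used by sodium-coupled carriers, stood at 6.34 and 3.5 FPKM in resistant libraries, against 8.59 and 8.7 FPKM in parental libraries (log2 fold change -0.75 ± 0.28 SE, limma adjusted p = 0.291). The beta subunit gene ATP1B3, more abundant in every library, had overlapping groups, at 78.9 and 50.1 FPKM in resistant and 51.6 and 55.7 FPKM in parental libraries. TXNIP, an arrestin-like protein that lowers glucose uptake, stood at 3.11 and 2.36 FPKM in resistant libraries, against 9.8 and 4.49 FPKM in parental libraries (log2 fold change -1.05 ± 0.36 SE, limma adjusted p = 0.273). ARRDC3, of the same alpha-arrestin family, stood at 1.87 and 2.01 FPKM in resistant libraries, against 2.93 and 3.37 FPKM in parental libraries (log2 fold change -0.50 ± 0.17 SE, limma adjusted p = 0.281). All of these but ATP1B3 were lower in both resistant libraries. CHP1, a cofactor of sodium-proton exchangers, stood at 20.6 and 21.9 FPKM in resistant libraries, against 29.7 and 29.9 FPKM in parental libraries. Of 43 carriers listed under other symbols, 27 were tested and 0 passed. At an unadjusted limma p under 0.05 there were 2, which is 7.41% of those tested against 16.2% of all genes tested. Of those 2, 1 was higher, MFSD5, a molybdate carrier, at 12.4 and 12.8 FPKM in resistant libraries, against 7.02 and 7 FPKM in parental libraries. The 1 lower was the magnesium carrier NIPA2, at 16.6 and 21.1 FPKM in resistant libraries, against 24.7 and 37.9 FPKM in parental libraries.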

How the data were processed

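RNA was sequenced from resistant (2 libraries) and parental (2 libraries) 92.1 cells after phenol-based extraction and a stranded dUTP preparation, per the labels' protocols, which name both poly(A) selection and rRNA removal without saying which was used. The deposited values are FPKM, per the file headers, and the build was hg38, per the submitters' processing notes. The sources used here do not give the aligner, the FPKM program or the annotation release. In every deposited gene at least 1 group mean was 0.501 FPKM or more. True depth is unknown. Identifiers were matched to current symbols for 11575 of 11650 genes, and otherwise to GENCODE release 29, which also gave positions.

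Values were taken as log2(FPKM + 1) where the mean over libraries reached 1 FPKM. Resistant and parental libraries were compared by a two-sided test in limma 3.58.1 (R 4.3.3), with the prior variance following mean level. The fit was tested on simulated data. Within each class, genes were named where they were the 2 highest in mean FPKM, or up to 2 in each direction of largest log2 fold change at an unadjusted limma p under 0.05 without overlap. SLC7A5, SLC7A2, SLC38A1, SLC38A2, SLC39A1 and other genes outside this rule were chosen after their values were seen. Some genes are not reported here. Members and lists were chosen with earlier results of these data known. Alternatives were a pseudocount of 0.1, no minimum or a minimum of 5 FPKM, a common sum, median-of-ratios and quantile scaling, no variance trend, library weights, the replicate number as a block, and leaving out each library. Figures were drawn in matplotlib 3.10.9.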

Additional observations from a re-analysis of the deposited data

How the results depend on the processing

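Counts of solute carrier genes called were 0 higher and 0 lower under every alternative listed except without parental replicate 2, where 1 was lower (0 to 1 over the libraries left out). Over all genes, 5 were called higher and 1 lower, and 3 were higher with a pseudocount of 0.1, median-of-ratios scaling, quantile normalization or library weights. Leaving out a library gave 0 to 19 genes higher and 0 to 13 lower over all genes. Leaving out a library gave 5 to 19 members higher and 1 to 23 lower at an unadjusted limma p under 0.05, against 12 and 16, and 94 to 102 without overlap, against 73, since a group of 1 overlaps less. In fits with a library left out, the lone library is assumed to vary like the other group. With a minimum mean of 5 FPKM fewer genes remain, with 6 members higher, 9 lower and 36 without overlap, and medians of -0.33 (amino acids), -0.11 (SLC35) and -0.34 (vitamins and lipids), while the classes of sugars, organic anions and amines, with at most 2 genes left, gave no value. With median-of-ratios scaling 21 members were higher, and the 4-gene class of amines and other substrates had a median of -0.35 (-0.36 with quantile normalization, against -0.44). For all genes, the shares without overlap or at an unadjusted limma p under 0.05 are given for the main settings only. Member counts under the alternatives therefore have no background beside them. The cause of these shifts was not tested.

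Leaving out a library, the median log2 fold change ran from -0.155 to 0.0722 over all members (with the full set -0.01), -0.16 to 0.31 for amino acid carriers, -0.13 to 0.34 for inorganic ions, -0.20 to 0.0342 for metals, -0.51 to -0.35 for amines and other substrates, -0.0904 to 0.17 for the SLC35 family, 0.0386 to 0.23 for organic anions and cations, -0.21 to 0.0616 for sugars and -0.24 to -0.11 for vitamins and lipids. With the replicate number as a block, 11 members were higher and 13 lower at an unadjusted limma p under 0.05, and 4 genes were called higher over all genes. Deviations of libraries with the same number correlated at -0.0709, so the number was not taken as a pairing. The depth of the libraries is unknown, so counting error could not be set beside the low values.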
